A study of Mus musculus with 15 samples.

Results

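Histone deacetylases and other chromatin modifying enzymes were followed in the mouse hippocampus through the extinction of contextual fear. The set comprised 39 gene names in the array annotation, listed by name under a rule that uses no measured value, which stand for 38 genes because Hdac7 is listed on this array under its older symbol Hdac7a. All 38 were measured, of 26116 genes tested. They were 11 classical histone deacetylases, 7 sirtuins, 3 histone acetyltransferases, 6 writers or readers of DNA methylation, 8 histone methyltransferases and 3 corepressor scaffolds.

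Acetyl groups on histone tails are added by acetyltransferases and removed by deacetylases, and acetylated chromatin is generally open to transcription. Methyl groups on histones mark active or silent chromatin depending on the residue, and methyl groups on cytosine recruit methyl-binding proteins that bring corepressors and deacetylases. In the hippocampus these enzymes are known for their part in memory: Hdac2 and Hdac3 restrain memory formation in mice, and loss of the acetyltransferase Crebbp or of Dnmt3a in forebrain neurons impairs it.

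All mice were male C57BL/6J, an inbred laboratory strain, and the labels name no engineered allele. A first set of 5 mice had been shocked in a box and was sampled 1 h after extinction trial 1, the first return to the box without shock, when freezing was high (E1). A second set of 5 shocked mice was returned at intervals of 24 h and sampled 1 h after trial 5, when freezing had declined (ELF). The 5 control mice never received the training shock. The design text says they were placed in the box, whereas their sample names call them naive, and no time of sampling is given for them. The labels describe the mice as biological replicates. ELF mice therefore differed from E1 mice in the number of trials and in the time since the shock together.

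Each mouse gave 1 single-colour array. Levels below are log2 intensities relative to the 75th percentile of the same array, which lay between 1441 and 2932 intensity units. Levels of different genes come from different probes and are not set against each other. Between 82.0% and 95.3% of spots on an array were well above background. The arrays lay on 4 slides, and slide and group overlapped only in part: slide 1 held 4 controls, slide 2 the fifth control and 3 E1 mice, slide 3 the other 2 E1 mice and 2 ELF mice, and slide 4 the remaining 3 ELF mice. Summed levels of 10 hippocampal neuron markers ranged from 154 to 177 in control, 147 to 191 in E1 and 134 to 168 in ELF, in multiples of the 75th percentile, and all 10 were above background on every array. Of 16 endothelial markers measured, 2 fell in E1 (Cldn5 and Kdr) and 8 fell in ELF against control. The shares of all genes called, in either direction, were 0.188% and 2.15%. Of 9 mural markers 2 also fell in ELF, and of 10 markers of meninges and fibroblasts 1. With slide in the model the E1 difference of Cldn5 went from -0.93 to -0.62 and that of Kdr from -0.86 to -0.31. The summed choroid plexus markers ranged from 74.6 to 98.6 in control and from 9.76 to 66.7 in ELF, although none of those 13 genes passed the test. The lowest value was that of ELF 3, and the other 4 ELF arrays lay between 56.2 and 66.7. In bulk tissue, fewer cells of a type and less RNA per cell cannot be told apart.

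Differences are log2 differences of group means with the standard error (SE) or 95% interval of a limma fit to all 15 arrays. The threshold for a call was 0.05 for the p-value after Benjamini-Hochberg adjustment across the 26116 genes. All 38 genes were above background on every array, except that Hdac5 had 1 spot marked as an outlier (ELF 3), so its ELF mean is over 4 arrays. None was saturated.

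No chromatin enzyme gene passed the test in any of the 3 comparisons. The share of all genes called was 0.188% for E1 against control, 2.15% for ELF against control and 0.00766% for ELF against E1. Of the 562 genes called in ELF against control, 389 rose and 173 fell. The smallest adjusted p-values among the 38 were 0.286, 0.0536 and 0.405 in that order, by limma. The differences of the 38 ran from -0.36 to 0.34 for E1 against control, from -0.70 to 0.34 for ELF against control and from -0.52 to 0.30 for ELF against E1. Their medians were 0.02, -0.02 and -0.04, beside medians over all genes of 0.04, 0.10 and 0.05.

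A call that is missed does not show that a gene was unaltered, so the intervals matter here. For E1 against control the 95% interval lay within 0.5 log2 units of zero for 32 of the 38 genes, and for ELF against control for 30. In ELF against E1 it did so for 33. Within 1 log2 unit, a factor of 2, lay the intervals of all 38, of 37 and of all 38 genes. The exception was Dnmt3a in ELF against control. The median absolute difference of the 38 genes was 0.075, 0.12 and 0.13 in the 3 comparisons. Over the 22432 genes above background on every array it was 0.13, 0.19 and 0.13. The median SE of the 38 was about 0.11, against 0.14 over those 22432 genes. All these values are of the fit without slide. With slide in the model the ELF to control differences ran from -0.89 (Dnmt3a) to 0.89 (Sirt5). The SE was then 0.25 instead of 0.11 for Hdac2, and 0.42 instead of 0.18 for Dnmt3a. The counts of intervals above were not made for that fit.

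**Figure D1:**
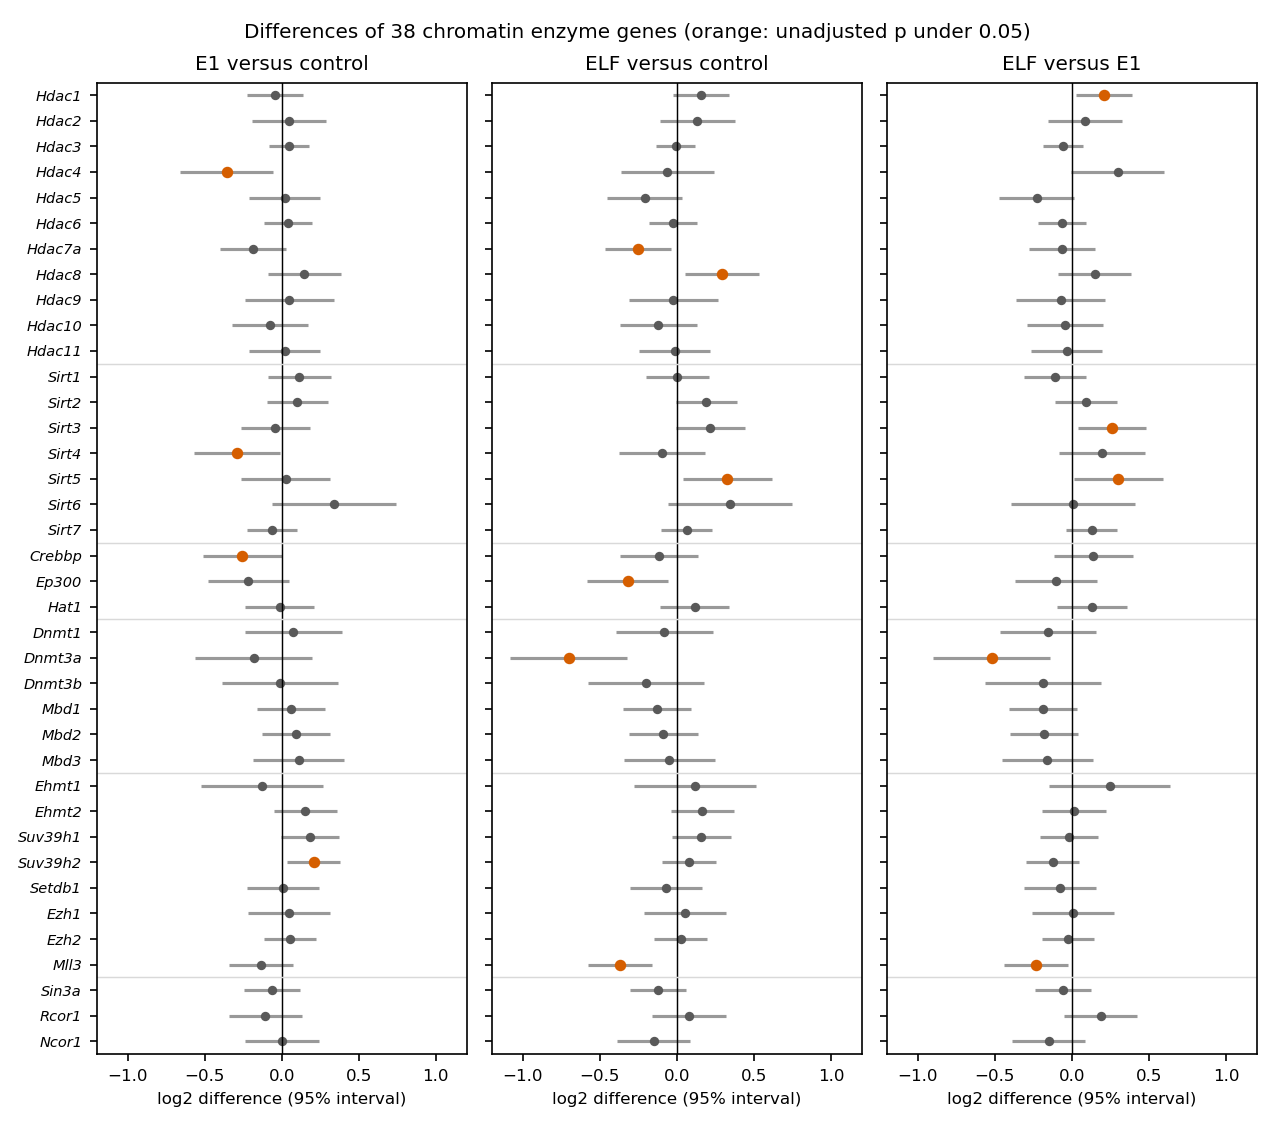
Log2 differences of the 38 genes (points) with 95% intervals of the limma fit (lines) for E1 against control, ELF against control and ELF against E1, in the order deacetylases, sirtuins, acetyltransferases, DNA methylation genes, histone methyltransferases and corepressor scaffolds. Orange points have an unadjusted p under 0.05; Dnmt3a at -0.70 in the middle panel lies farthest from zero, and most intervals include zero.

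Counted at an unadjusted p under 0.05, E1 against control held 1 of the 38 genes higher (Suv39h2) and 3 lower (Hdac4, Sirt4 and Crebbp). The background for these counts was 9.07% of all genes higher and 4.04% lower. For ELF against control the counts were 2 higher (Hdac8 and Sirt5) and 4 lower (Dnmt3a, Mll3, Ep300 and Hdac7a), beside 15.7% and 7.30% of all genes. ELF against E1 held 3 higher (Hdac1, Sirt3 and Sirt5) and 2 lower (Dnmt3a and Mll3), beside 5.64% and 4.00%. The groups did not overlap in 0 of the 38 genes for E1 against control, in 2 for ELF against control (Dnmt3a and Mll3) and in 1 for ELF against E1 (Dnmt3a), beside 3.73%, 4.75% and 2.06% of all genes. The counts of higher genes in E1 and in ELF against control were below the background share. The other counts lay within a few genes of theirs, and none of these departures was tested. The comparisons share groups, so the recurrence of Dnmt3a and Mll3 in both comparisons of ELF is not independent.

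The 2 genes nearest to a call in ELF, Dnmt3a and Mll3, are each measured by several 60-base probes. The sequences below are those of the array design on the mouse build mm7. They are shown because the probes of each gene gave differences of unequal size, although no difference between probes was tested. Capitals mark the only forward reading frame without a stop codon, as found by translating all 3 frames, and outer bases in lower case fall outside whole codons of that frame. The Dnmt3a probe used for the gene lies at chr12:3825243-3826024 on the plus strand, a span longer than the probe, so it joins separate blocks of the genome. The Mll3 probe used lies at chr5:24340067-24340126 on the minus strand. A second Mll3 probe, at chr5:24413616-24413675 on the minus strand, is the most upstream of the 6.
Dnmt3a, probe used: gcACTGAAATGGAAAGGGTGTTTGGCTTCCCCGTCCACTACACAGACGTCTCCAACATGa
Mll3, probe used: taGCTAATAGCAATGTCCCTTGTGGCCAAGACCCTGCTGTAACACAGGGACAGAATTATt
Mll3, most upstream probe: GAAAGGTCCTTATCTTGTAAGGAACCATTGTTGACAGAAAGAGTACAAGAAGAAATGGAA

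Dnmt3a encodes a methyltransferase that places new methyl groups on cytosine. Its control levels were -0.16, -0.34, -0.33, -0.46 and -0.54. In E1 they were -0.74, -0.67, -0.68, -0.75 and 0.11. ELF mice had -0.85, -1.58, -1.001, -1.12 and -0.78. Every ELF value lay below every control value and, by a narrow margin, below every E1 value. Of all genes, 4.75% and 2.06% had no overlap, in either direction, in these comparisons. In E1, 4 mice lay below all controls and the fifth above all of them.

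The ELF mean of Dnmt3a (-1.07 ± 0.31, SD, n = 5) was 0.615 times the control mean on the linear scale (difference -0.70, 95% interval -1.08 to -0.32, adjusted p = 0.0536). Against E1 (-0.55 ± 0.37, n = 5) it was lower by 0.52 (difference -0.52 ± 0.18 SE, adjusted p = 0.405). Between the 2 mice of each group on slide 3 the latter difference was -0.74, and the ELF to control difference with slide in the model was -0.89. Both include E1 5, the high mouse, and without it they were -0.31 and -0.46 (alternatives chosen after seeing the data, neither passing the test). E1 against control gave -0.18 ± 0.18, and -0.34 without the high mouse E1 5 (adjusted p = 0.473). Leaving out single mice gave ELF to control differences between -0.77 and -0.57, with adjusted p-values from 0.0294 to 0.147. The gene passed the threshold without control 5 (adjusted p = 0.0333) or without ELF 4 (adjusted p = 0.0294). Over 13 other ways of processing, 5 gave an adjusted p under the threshold, and the range was 0.0227 to 0.9995, the highest with slide as a random block.

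The other 2 Dnmt3a probes, 1359 and 5722 bases downstream, gave ELF to control differences of 0.07 ± 0.08 and -0.10 ± 0.11 (SE). Both were dimmer, at mean levels of -3.55 and -1.95 over all arrays against -0.66 at the probe used. The difference of the gene was thus carried by 1 of 3 probes, the brightest. Which exon or untranslated part each probe reads was not looked up, since no genome of this build was used.

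Mll3 (now Kmt2c) encodes a large methyltransferase of histone H3 lysine residues linked to enhancers. Control levels were 2.43, 2.30, 2.40, 2.41 and 2.47. The E1 values were 2.36, 2.35, 2.31, 2.30 and 2.02. In ELF they were 2.12, 1.76, 2.06, 1.97 and 2.26. Control and ELF did not overlap, as in 4.75% of all genes, whereas E1 overlapped both.

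The ELF mean of Mll3 (2.03 ± 0.19, n = 5) was 0.774 times the control mean on the linear scale (2.40 ± 0.06, n = 5; difference -0.37, 95% interval -0.58 to -0.16, adjusted p = 0.0593). With slide in the model the difference was -0.28. Without ELF 4 it was -0.36 and passed the threshold (adjusted p = 0.0352). Without ELF 2, the lowest mouse, it was -0.30 (adjusted p = 0.0987). Of the same 13 ways of processing, 3 gave a call (adjusted p from 0.0277 to 0.9995). Against E1 (2.27 ± 0.14) the difference was -0.24 ± 0.10, and -0.15 between the slide 3 arrays. Without E1 5, the low mouse, the slide 3 difference was -0.29.

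All 6 Mll3 probes had a lower mean in ELF than in control. Their differences, from upstream to downstream, were -1.20 ± 0.27, -0.03 ± 0.20, -0.49 ± 0.25, -0.37 ± 0.10, -0.17 ± 0.11 and -0.12 ± 0.09 (SE). When the test was run on single probes, the most upstream was the only one of the 75 probes for these genes to pass (adjusted p = 0.0429). Across the array 2.36% of 38456 probes passed that test. Levels at this probe were between -3.60 and -2.93 in control and between -5.64 and -3.93 in ELF, so the groups did not overlap. The lowest was again ELF 2. Control 5, the only control not on slide 1, was the lowest control, at -3.60. The E1 mice on slide 2 beside it had -3.81, -3.69 and -3.67. On slide 3 the ELF mice had -3.93 and -4.40, and the E1 mice -3.72 and -3.46. The single probes were not fitted with slide in the model.

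**Figure D2:**
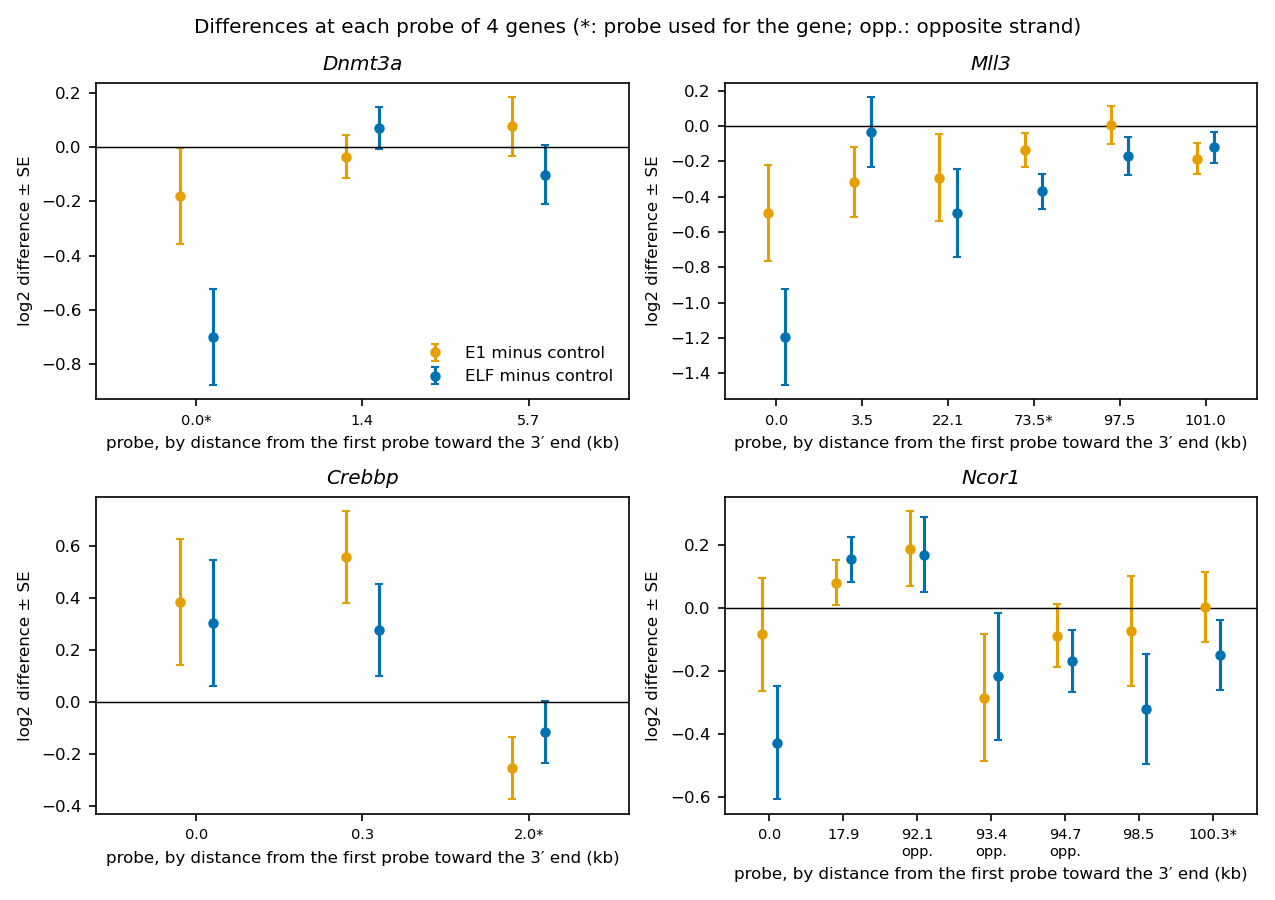
Log2 difference from control (points, ± SE of the limma fit) at each kept probe of Dnmt3a, Mll3, Crebbp and Ncor1, for E1 (orange) and ELF (blue), ordered from the most upstream probe and labelled by genomic distance from it in kb; an asterisk marks the probe used for the gene and opp. a probe on the opposite strand. Of the Dnmt3a probes, only the first lies more than 1 SE from zero in ELF, the first Mll3 probe reaches -1.20, and the 2 upstream Crebbp probes lie on the other side of zero from the probe used.

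Of the 19 genes with more than 1 kept probe, 11 had probes of both signs in E1 against control, 12 in ELF against control and 11 in ELF against E1. Most of these differences were close to zero. The clearest split was in Crebbp, described with the acetyltransferases below.

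The 11 classical deacetylases gave no call. Hdac1, Hdac2 and Hdac3 are class I enzymes that act in nuclear corepressor complexes. Hdac1, at chr4:128960910-128960981, had control levels of 1.22, 1.25, 1.40, 1.47 and 1.35. E1 values were 1.36, 1.24, 1.28, 1.28 and 1.29, and ELF values 1.43, 1.70, 1.26, 1.53 and 1.54. In ELF 3 of 5 mice lay above every control, and ELF 3 lay inside the other groups. The difference was 0.20 ± 0.08 against E1 (adjusted p = 0.475) and 0.16 ± 0.08 against control (adjusted p = 0.276).

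Hdac2, at chr10:36774774-36774908, had control levels of -1.11, -0.81, -0.80, -0.92 and -0.98. The E1 mice had -1.002, -0.63, -1.07, -0.75 and -0.92, and the ELF mice -1.02, -0.74, -0.60, -0.63 and -0.96. All 3 groups overlapped widely. The differences were 0.05 ± 0.11 for E1 and 0.13 ± 0.11 for ELF against control, and the intervals reached 0.29 and 0.37 at most.

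Hdac3 varied least among mice. It lay at 1.31, 1.30, 1.36, 1.36 and 1.25 in control, 1.34, 1.36, 1.39, 1.35 and 1.38 in E1, and 1.28, 1.24, 1.32, 1.41 and 1.27 in ELF. The intervals of its differences were -0.08 to 0.18 for E1 and -0.14 to 0.12 for ELF against control.

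Hdac8, a class I enzyme encoded on the X chromosome, was highest on average in ELF. The probe used spans chrX:97635086-97729989. Control levels were -1.91, -1.55, -1.66, -1.56 and -1.38, those of E1 -1.66, -1.51, -1.44, -1.36 and -1.36, and those of ELF -1.27, -1.57, -1.10, -1.37 and -1.28. In ELF 4 of 5 mice lay above all controls. The difference was 0.29 ± 0.11 (adjusted p = 0.143), but with slide in the model it was -0.04. Control 5, the only control not on slide 1, was the highest of the controls.

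Class IIa deacetylases shuttle between nucleus and cytoplasm with neuronal activity. Hdac4, at chr1:91840786-91840845, had control levels of 1.61, 1.62, 1.65, 1.52 and 1.33. E1 values were 1.35, 1.29, 1.06, 1.27 and 0.97, and ELF values 1.44, 1.11, 1.93, 1.69 and 1.26. The E1 mice lay below 4 controls and overlapped the fifth, which shares slide 2 with 3 of them. ELF values spread over the whole range, with the 2 mice on slide 3 above every control and the 3 on slide 4 below all controls on slide 1.

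The E1 mean of Hdac4 was 0.781 times that of control (difference -0.36, 95% interval -0.66 to -0.05, adjusted p = 0.290), but the difference within slide 2 was -0.10. ELF exceeded E1 by 0.30 ± 0.14, and by 0.69 within slide 3. Slide and group could be separated for this gene only through those few arrays.

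Hdac5, another class IIa enzyme, at chr11:102304793-102304852, had control levels of 4.15, 4.20, 3.93, 3.99 and 3.78. Those of E1 were 4.02, 3.84, 3.88, 4.16 and 4.25. The 4 usable ELF arrays gave 3.83, 3.85, 3.65 and 3.87. ELF values lay at the low end of both other groups. The difference was -0.21 ± 0.11 against control (adjusted p = 0.281) and -0.23 ± 0.11 against E1 (adjusted p = 0.533). On slide 3, where 1 ELF array had a usable spot, the difference to E1 was -0.55.

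Hdac7a, which in other tissues is known from endothelium and thymus, had means of 0.11 ± 0.13 in control, -0.08 ± 0.06 in E1 and -0.15 ± 0.21 in ELF (SD, n = 5). The ELF to control difference was -0.25 ± 0.10 (adjusted p = 0.152), and -0.37 with slide in the model. ELF 5 lay at 0.22, inside the control range, and the other 4 between -0.29 and -0.15, below every control. The summed levels of the 16 endothelial markers ranged from 23.5 to 39.2 in control, 19.3 to 23.1 in E1 and 18.3 to 24.3 in ELF. All 16 were above background on every array. Control 5, the only control not on slide 1, had the lowest sum of the controls, at 23.5, and those on slide 1 had 26.3 to 39.2. The part of these markers in the Hdac7a difference was not tested.

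Of the remaining deacetylases, Hdac6, a mostly cytoplasmic tubulin deacetylase, Hdac9, Hdac10 and Hdac11 differed by at most 0.12 in either direction in any comparison. Adjusted p-values for these 4 genes were 0.548 or more. The third kept probe of Hdac9, far downstream of the probe used, was higher by 0.42 ± 0.17 in E1 and 0.38 ± 0.17 in ELF (adjusted p = 0.301 and 0.196 over all probes).

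Sirtuins are NAD-dependent deacylases, of which Sirt1, Sirt6 and Sirt7 are nuclear, Sirt2 mainly cytoplasmic and Sirt3, Sirt4 and Sirt5 mitochondrial. None of the 7 passed the test, and their median difference was 0.03 in E1 and 0.19 in ELF against control. Sirt3, at chr7:137280969-137281028, had control levels of 4.07, 4.09, 4.05, 4.25 and 4.00. E1 mice had 4.16, 4.16, 3.97, 3.90 and 4.07, and ELF mice 4.25, 4.65, 4.39, 4.16 and 4.10. ELF 2 and ELF 3 lay above all mice of the other groups, and the other 3 ELF mice within or at the top of their range. The difference was 0.26 ± 0.10 against E1 (adjusted p = 0.466), 0.29 on slide 3, and 0.22 ± 0.10 against control (adjusted p = 0.227).

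Sirt4, at chr5:114698987-114699046, had control levels of 1.36, 1.13, 1.25, 1.18 and 1.00. In E1 they were 1.14, 0.96, 0.92, 0.94 and 0.51, and in ELF 1.04, 1.47, 0.85, 1.10 and 0.98. E1 tended to lie low, with 4 of 5 mice below all controls. The E1 to control difference was -0.29 ± 0.13 (adjusted p = 0.366) over all arrays, and 0.01 within slide 2.

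Sirt5 averaged 0.44 ± 0.16 in control, 0.47 ± 0.25 in E1 and 0.77 ± 0.22 in ELF. The ELF difference was 0.33 ± 0.13 against control (adjusted p = 0.171) and 0.30 ± 0.13 against E1 (adjusted p = 0.505), and it was 0.61 within slide 3. ELF and control overlapped. Sirt2, which is abundant in oligodendrocytes, differed by 0.19 ± 0.09 in ELF against control (adjusted p = 0.232), but by -0.22 with slide in the model. Its other 2 probes gave 0.01 and 0.06. The summed levels of 8 oligodendrocyte markers ranged from 85.6 to 100.4 in control, 83.1 to 134.1 in E1 and 79.2 to 95.9 in ELF. The highest was that of E1 5, and the next E1 array had 103.3.

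Sirt6 had the widest spread of the sirtuins. Its differences to control were 0.34 ± 0.19 in E1 and 0.34 ± 0.19 in ELF, but with slide in the model they were 0.05 and -0.64, the ELF difference having turned. Within slide 3 ELF minus E1 was -0.69. Sirt1 and Sirt7 differed by at most 0.13 in any comparison.

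The 3 acetyltransferases were lower on average in E1 than in control, at -0.25 for Crebbp, -0.22 for Ep300 and -0.01 for Hat1. Crebbp encodes a coactivator recruited by the transcription factor CREB. At the probe used, chr16:3754746-3754805, control levels were 1.65, 1.58, 1.55, 1.49 and 1.28. E1 levels were 1.16, 1.31, 1.12, 1.44 and 1.24, and ELF levels 1.20, 1.45, 1.69, 1.55 and 1.07. The E1 mice lay below the 4 controls on slide 1 and on both sides of the fifth.

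The E1 to control difference of Crebbp was -0.25 ± 0.12 (adjusted p = 0.381), and -0.08 within slide 2. The other 2 probes, 1614 and 1964 bases upstream, went the other way, at 0.56 ± 0.18 (adjusted p = 0.179 over all probes) and 0.39 ± 0.24 (SE, adjusted p = 0.535). With the probes of a gene averaged, the Crebbp difference was 0.23. Over all arrays the sign of the Crebbp difference therefore depended on the probe. The upstream probes were dimmer, at mean levels of -3.52 and -3.25 against 1.39 at the probe used. On slide 2 the E1 mice lay below control 5 at both of them. The nearer had -3.43, -3.31 and -3.50 against -3.29, and the farther -3.24, -3.36 and -3.19 against -3.13. The probes were thus split in sign over all arrays but not within slide 2.

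Ep300, the close relative of Crebbp, had means of -1.24 ± 0.17 in control, -1.45 ± 0.15 in E1 and -1.56 ± 0.25 in ELF. The ELF difference was -0.32 ± 0.12 (adjusted p = 0.149), and 0.04 with slide in the model. Hat1, which acetylates newly made histones, differed by at most 0.13.

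Besides Dnmt3a, the DNA methylation genes were the maintenance methyltransferase Dnmt1, the second new-methylation enzyme Dnmt3b and the binding proteins Mbd1, Mbd2 and Mbd3. Mbd3 itself binds methylated DNA poorly in mammals and belongs to the NuRD corepressor. Apart from Dnmt3a, the ELF differences were between -0.20 and -0.05 against control and between -0.19 and -0.16 against E1. When single mice were left out, the sign was not stable for Dnmt1, Mbd2 and Mbd3. The difference to control was 0.08 for Dnmt1 without ELF 4, and 0.01 for Mbd2 and 0.06 for Mbd3 without ELF 2. Against E1, that of Dnmt1 was 0.01 without ELF 4. Other ways of processing also turned the differences of Mbd1 and Mbd3 to E1, which reached 0.12 and 0.04. The other Mbd1 probes gave 0.39 ± 0.28 and 0.15 ± 0.09 (SE) for ELF against E1, where the probe used gave -0.19. None of these 5 genes passed the test, and their smallest adjusted p was 0.459 against control (Mbd1) and 0.571 against E1 (Mbd1). E1 and control differed by 0.11 at most in these 5.

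Dnmt1 rested largely on 1 mouse in ELF, with ELF 4 at -0.97 and the other 4 between -0.26 and -0.05. Dnmt3b was dim and variable in ELF, from -5.28 to -4.24, against -4.57 to -4.23 in control.

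The 8 histone methyltransferases include the H3 lysine 9 enzymes Ehmt1, Ehmt2, Suv39h1, Suv39h2 and Setdb1 and the Polycomb enzymes Ezh1 and Ezh2. Suv39h2, at chr2:3381885-3381944, had the smallest p of the 38 in E1 against control. Control levels were -3.41, -3.37, -3.44, -3.15 and -3.15, those of E1 -2.98, -3.07, -3.11, -3.18 and -3.14, and those of ELF -3.13, -3.22, -3.30, -3.32 and -3.14. The E1 mice were above 3 controls and level with the other 2. The difference was 0.21 ± 0.08 (1.15-fold, adjusted p = 0.286), and 0.10 within slide 2. Its other 2 kept probes, both dimmer, gave 0.04 ± 0.13 and 0.51 ± 0.36 (SE) in E1 against control. In ELF against control they gave 0.32 ± 0.13 and 0.08 ± 0.36, and the probe used gave 0.08 ± 0.08.

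Suv39h1, its paralog, gave 0.18 ± 0.09 in E1 and 0.16 ± 0.09 in ELF against control, and Ehmt2 gave 0.15 ± 0.10 and 0.17 ± 0.10. Adjusted p-values of both were 0.290 or more. With slide in the model the ELF differences turned, to -0.19 for Suv39h1 and -0.16 for Ehmt2, and those of E1 were 0.04 and -0.08. Ehmt1 partners with Ehmt2 and was uneven, with ELF 2 at 2.42 and E1 5 at 0.99 against a control range of 1.47 to 1.75. Ezh1, Ezh2 and Setdb1 differed by at most 0.08 in any comparison.

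The corepressor scaffolds Sin3a, Rcor1 and Ncor1 hold deacetylases in the SIN3, CoREST and NCoR complexes. Their differences ran from -0.15 to 0.19 over the 3 comparisons, with adjusted p-values of 0.394 or more. Ncor1 was the gene with the most probes. In ELF against control its 4 probes on the gene's own strand gave -0.15 ± 0.11 (the probe used), -0.32 ± 0.17, -0.43 ± 0.18 and 0.16 ± 0.07 (SE). At the first 3 of these, ELF 2 was the lowest of all mice.

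**Figure D3:**
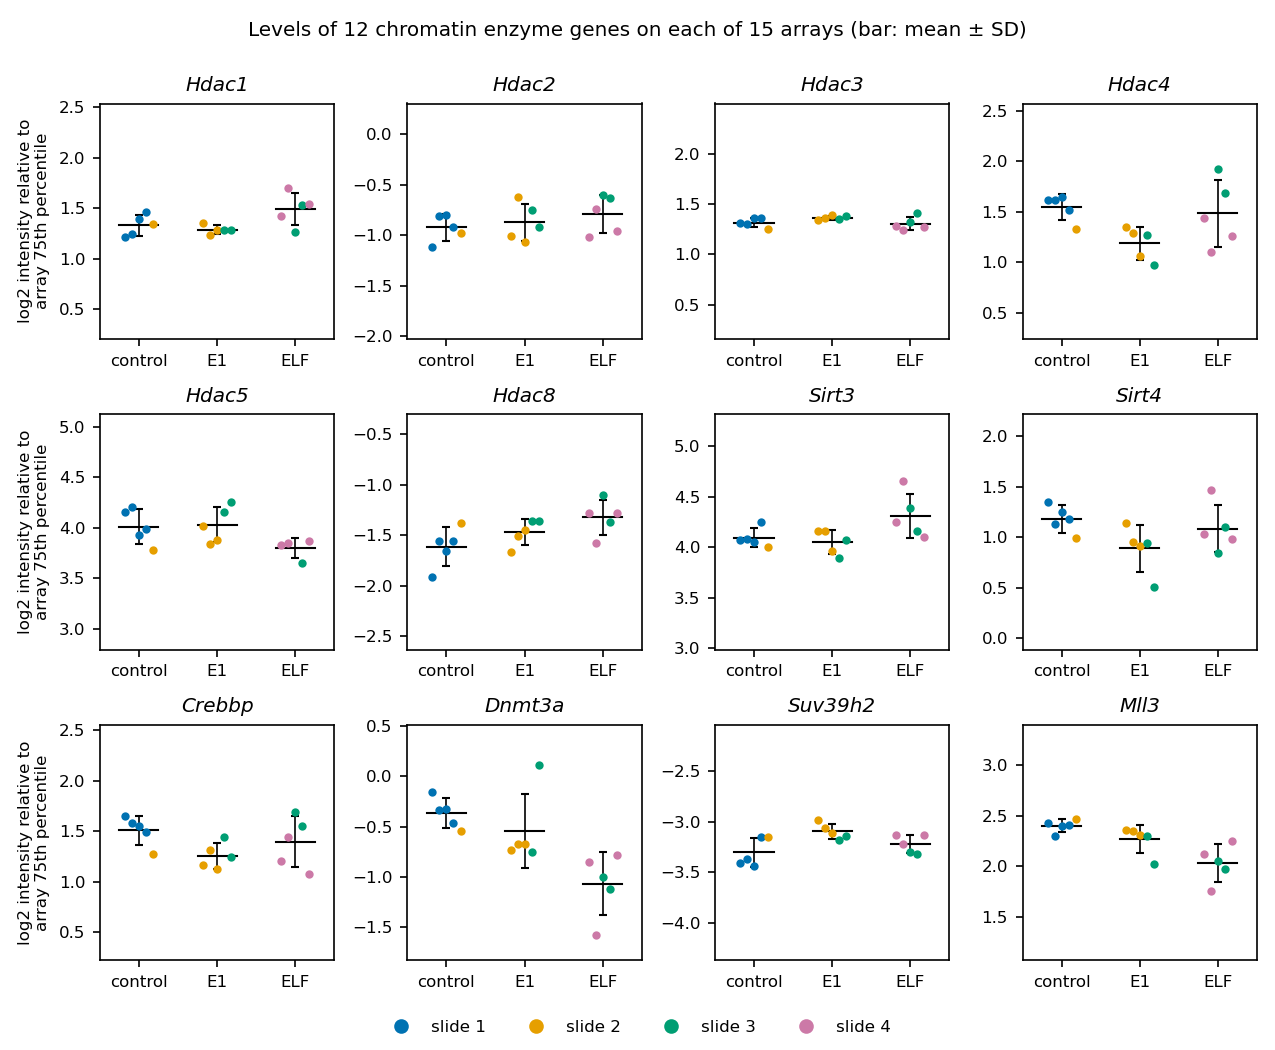
Log2 intensity relative to the array's 75th percentile for 12 genes in each of the 15 mice, by group, coloured by slide, with group mean and SD (n = 5, and 4 for Hdac5 in ELF). Every panel spans the same range of log2 units; Dnmt3a and Mll3 show ELF values that do not overlap control (4.75% of all genes do the same), and in Hdac4, Sirt4 and Crebbp the control on slide 2 lies nearest to the E1 mice.

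Slide crossed the groups in part. With slide as a fixed block, E1 and control are compared only within slide 2 and ELF and E1 only within slide 3. None of the 38 genes passed in E1 against control (0.0153% of all genes did) or ELF against control (0.325%). In ELF against E1, 5 passed: Hdac4 and Sirt5 higher, and Hdac5, Sirt6 and Dnmt3b lower. That is to be read beside 19.6% of all genes called in the same fit, which rests on 4 arrays of slide 3. Without E1 5, 1 of those 4, none of the 38 passed in that fit and 0.862% of all genes did. The differences within slide 3 were 0.69, 0.61, -0.55, -0.69 and -0.60. With slide as a random block (correlation 0.47) no gene of the array passed in any comparison.

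Replicate numbers of the labels were also taken as a block for E1 and control, although the labels state no pairing. Same-numbered arrays of these groups deviated together only weakly (correlations 0.14 to 0.30), and most did not correlate best with their own number. Fitted to all 15 arrays, the block left 0 of the 38 and 9 genes of the whole array called, against 49 without it. When only those 10 arrays were fitted, an alternative added after seeing the data, 3 genes passed: Hdac4 (-0.36, adjusted p = 0.0286), Sirt6 (0.34, adjusted p = 0.0293) and Sirt4 (-0.29, adjusted p = 0.0455), beside 12.3% of all genes. Within slide 2 the differences of the 3 were -0.10, 0.05 and 0.01.

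Related genes outside the set were counted from lists of other chromatin factors. Of the 28 measured other histone methyltransferases, 11 other acetyltransferases, 22 histone demethylases and 27 corepressor complex subunits, none passed in any comparison. The smallest p-values of these lists in ELF against control belonged to Ash1l (-0.79, adjusted p = 0.0738), Ncoa1 (-0.28, adjusted p = 0.0793), Jarid1a, now Kdm5a (-0.54, adjusted p = 0.229), and Sap30, a SIN3 subunit (0.45, adjusted p = 0.0596). Among the demethylases no gene had even an unadjusted p under 0.05.

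Among 23 Polycomb genes, 2 rose in ELF against control: Phf19, an accessory protein of the complex that holds Ezh2 (0.91 ± 0.20, adjusted p = 0.0418), and Cbx8, a reader of its mark (0.46 ± 0.11, adjusted p = 0.0493). With slide in the model their differences were -0.23 and 0.18. A further list held genes linked to DNA methylation or to its removal, Uhrf1 among them. Of its 10 measured genes, 1 rose in ELF, Gadd45g (0.55 ± 0.11, adjusted p = 0.0297, and 0.40 with slide in the model). Gadd45 proteins are stress and activity induced, and a part in active demethylation has been proposed for them. In E1 against control Gadd45g gave 0.49 ± 0.11 (adjusted p = 0.0724) and Gadd45b 0.49 ± 0.13 (adjusted p = 0.115).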

How the data were processed

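Hippocampal RNA of 15 mice was hybridised to 15 single-colour arrays, grouped by the sample labels into 3 groups of 5. Agilent Feature Extraction 9.5.3.1 made the deposited files, per the file headers, which hold a processed intensity, mean and background intensity, and flags scored 0 or 1. A table of log2 values by the authors had array medians of 8.68 to 8.92. These correlated with log2 mean intensity at r of at least 0.996 across spots of each array. How they were normalized is not stated in these sources, so they served as an alternative.

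The processed intensity was taken as log2 minus the array's 75th percentile, without the 1639 control spots and outlier spots. Probes well above background on at least 5 arrays were kept (38456 of 41174), and the probe brightest on average stood for a gene name (26116 genes). Groups were compared with limma 3.58.1 (lmFit, eBayes, two-sided) in R 4.3.3, with Benjamini-Hochberg adjustment over all genes. The pipeline was tested on simulated data. The number of arrays limits the precision of every comparison. Coordinates are those of the array design (mm7). Probe strand was read from the order of these coordinates, and gene strand came from a promoter table of a later mouse build. Current symbols came from a RefSeq gene table.

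The rule for the members uses gene names alone, but the members and lists were chosen with earlier results of these data known. Every member is named. Values of each array are given for the 3 members with the smallest p in each comparison and for Hdac1 to Hdac5, Crebbp and Dnmt3a. In the other lists the called genes are named, or the gene with the smallest p. Same-numbered control and E1 arrays deviated together (correlations 0.14 to 0.30), although only 2 of the 5 correlated best with their own number and the labels state no pairing. Control and ELF (-0.43 to 0.31) and E1 and ELF (-0.40 to 0.17) did not pair. Alternatives were other background corrections, scalings, filters, probe rules, blocks and left-out arrays.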

Additional observations from a re-analysis of the deposited data

Results flagged for a closer look

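Among the 114 sets of arrays tested (38 genes in 3 groups), 12 held an array that stood apart from the rest of its group by Dixon's criterion, and chance marks about 1 in 20 such sets. The array E1 5 accounted for 5 of the 12: Dnmt3a at 0.11 and Mbd3 at 1.51 were high there, and Ehmt1 at 0.99, Mll3 at 2.02 and Rcor1 at 1.44 were low. The array also had the lowest 75th percentile intensity of the 15, at 1441. Its summed levels of neuron (191), oligodendrocyte (134.1) and mural markers (20.8) were the highest of the 15. Whether these bear on the flagged values was not tested. ELF 4 was low in Hdac5 at 3.65 and in Dnmt1 at -0.97, and ELF 2 was high in Sirt7 at 2.99 and low in Ezh1 at -1.62. The other 3 were Hdac9 in control 5 at -0.17, Dnmt3b in E1 1 at -4.14 and Hdac7a in ELF 5 at 0.22.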

How the results depend on the processing

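With 5 mice a group and slides that overlap the groups only in part, calls near the threshold moved with the settings, and the causes were not tested. In ELF against control, where 0 of the 38 genes were called, normexp background correction called 1 (Dnmt3a), the median shift 1 (Dnmt3a), quantile normalization 3 (Dnmt3a, Dnmt3b and Mll3), the authors' deposited values 3 (Dnmt3a, Hdac7a and Mll3), and genes above background on all 15 arrays 2 (Dnmt3a and Mll3). The share of all genes called in these fits was 2.44%, 4.61%, 6.51%, 6.08% and 3.38%. With the authors' values 782 genes rose and 806 fell, against 389 and 173 as reported. Leaving out single arrays gave 0 to 4 called there: 1 without control 5, and 4 without ELF 4 (Dnmt3a, Ep300, Mll3 and Sirt6, with 19.8% of all genes). It gave 0 in the other comparisons. Slide as a fixed block called 5 in ELF against E1 (0 without E1 5, also added after seeing the data, with a median difference of 0.00872), and the replicate block with only the groups compared, added after seeing the data, called 3 in E1 against control. The replicate block over 15 arrays called 0 in each comparison. With the slide block the median difference was -0.0796 in E1 and -0.16 in ELF against control, and -0.05 in ELF against E1. The medians of all genes in these fits were -0.0367, -0.224 and -0.18. In the comparisons of ELF the 38 thus lay above the median of all genes, whereas without slide they lay below it. The median shift gave -0.12 in ELF against control and -0.10 in ELF against E1, and the authors' values gave -0.11 and -0.0922. The median shift moved the median of all genes in ELF against control from 0.10 to -0.00128, so both medians moved alike. Without single arrays the median ran from -0.00498 to 0.0285, from -0.0235 to 0.00551 and from -0.0535 to -0.00275 in the 3 comparisons. A change of sign was counted as a reversal only where the interval of the difference excluded 0. There were 4 among 15: Crebbp in E1 (0.23, probes averaged), Sirt4 in E1 (0.00999), Hdac8 in ELF (-0.0359) and Ep300 in ELF (0.0352), the last 3 with slide as a block, and -0.0360 for Hdac8 and 0.0846 for Ep300 when E1 5 was also left out. Of the other 99 differences, 69 changed sign under at least 1 alternative.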
